A study of Mus musculus with 6 samples.

Results

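H/ACA box small nucleolar RNAs (snoRNAs) and the small Cajal body RNAs (scaRNAs) are short non-coding RNAs of the nucleus, and their genes were examined here in freshly sorted muscle stem cells (MuSCs). All rows of the deposited table with the biotype snoRNA and a symbol starting with Snora or Scarna were taken, provided that their mean over the 6 libraries was at least 5. This gave 32 genes of 22706 rows, 23 Snora and 9 Scarna, and 32 of 32 rows with such a symbol reached the minimum. The lowest, Snora19, had values of 3 and 8 for control, 11 and 5 for mdx, and 9 and 7 in the Sirt6mKO/mdx-labelled libraries, and no row with such a symbol lay below the minimum. A further 6 snoRNA rows with the same names in capitals were not included.

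The samples formed 3 groups of 2 libraries each. The control mice were wild type. The mdx mice carried the dystrophin mutation that makes them a model of Duchenne muscular dystrophy, and the Sirt6mKO/mdx mice carried the same mutation together with a deletion of floxed Sirt6 by a Cre recombinase driven from the Pax7 promoter, which acts in the whole muscle lineage from development on. The labels give the strain C57BL/6 for all groups and no age, and the cells were sorted from muscle by surface markers or a reporter before ribosomal RNA was removed from total RNA. The labels do not say how many animals entered a library, so p-values cannot be taken to measure the spread between animals. In limma they rest on the spread between these libraries, drawn toward that of other genes at similar levels.

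An H/ACA RNA folds into hairpins joined by a hinge, ends with the triplet ACA close to its 3′ end, and pairs with a target RNA to place a pseudouridine. The base change is made by dyskerin (Dkc1), which works in a particle with Nop10, Nhp2 and Gar1. Most mammalian H/ACA RNAs lie in introns of host genes and are released after splicing. Snora RNAs act in the nucleolus, mainly on ribosomal RNA, while scaRNAs act in Cajal bodies on the small nuclear RNAs (snRNAs) of the spliceosome, and some scaRNAs carry the C and D boxes of the other snoRNA family, which directs 2′-O-methylation.

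The sequences below show these end features for 3 of the 4 most abundant Snora RNAs, for the ends of the most abundant scaRNA, for the 4 called genes with the largest differences between groups, and for Scarna3b, the relative of Scarna3a. They were read from GENCODE release 21 transcripts of GRCm38, in which 32 of 32 genes had the position of the deposited table, and run 5′ to 3′. Capitals mark an ACA that lies 2 to 5 bases from the 3′ end or, in Scarna9 and Scarna10, a C box (ATGATGA or GTGATGA) in the first 20 bases and a D box (CTGA) in the last 20 bases. Only the strand of the RNA was searched.
Snora7a: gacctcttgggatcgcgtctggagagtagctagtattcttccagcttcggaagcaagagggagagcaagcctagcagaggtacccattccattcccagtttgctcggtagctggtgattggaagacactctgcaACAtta
Snora28: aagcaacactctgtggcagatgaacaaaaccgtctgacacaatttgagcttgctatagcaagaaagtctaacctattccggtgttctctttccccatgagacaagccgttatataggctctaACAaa
Snora31: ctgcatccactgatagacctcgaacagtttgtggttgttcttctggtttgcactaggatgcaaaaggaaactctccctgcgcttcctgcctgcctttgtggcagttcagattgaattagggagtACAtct
Scarna10, first bases: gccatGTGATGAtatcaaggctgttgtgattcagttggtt
Scarna10, last bases: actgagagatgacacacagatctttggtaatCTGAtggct
Scarna9: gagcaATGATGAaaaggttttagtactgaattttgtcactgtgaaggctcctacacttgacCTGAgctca
Snora36b: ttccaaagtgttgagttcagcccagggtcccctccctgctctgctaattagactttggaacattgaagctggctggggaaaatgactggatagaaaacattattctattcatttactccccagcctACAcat
Scarna3a: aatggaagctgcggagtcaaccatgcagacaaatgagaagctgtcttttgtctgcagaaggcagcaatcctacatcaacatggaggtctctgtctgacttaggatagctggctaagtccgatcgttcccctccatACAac
Scarna3b: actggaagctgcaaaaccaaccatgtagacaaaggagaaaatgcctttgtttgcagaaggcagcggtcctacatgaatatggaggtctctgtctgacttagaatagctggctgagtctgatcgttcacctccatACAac
Snora33: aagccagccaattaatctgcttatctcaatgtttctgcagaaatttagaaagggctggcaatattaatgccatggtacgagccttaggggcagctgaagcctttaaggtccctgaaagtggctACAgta

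Snora7a lies at chr6:115807975-115808114 (minus strand) within Rpl32, Snora28 at chr12:111540941-111541067 (plus strand) within Eif5 and Snora31 at chr14:75847905-75848034 (plus strand) within Tpt1. Scarna10 lies at chr6:125186359-125186683 (minus strand) within Ncapd2, Scarna9 at chr9:15326264-15326333 (minus strand) within 5830418K08Rik, Snora36b at chr1:185242907-185243038 (plus strand) within Rab3gap2 and Snora33 at chr10:23785347-23785475 (minus strand) within Rps12. Scarna3a at chr1:159340283-159340422 (plus strand) and Scarna3b at chr12:80391613-80391751 (minus strand) lie on different chromosomes, within Rfwd2 and Dcaf5, and were identical at 120 of 140 aligned positions (85.7%).

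The ACA end was found in 23 of 23 Snora genes and in 4 of 9 Scarna genes, against 188 of 395 (47.6%) other snoRNA rows with a sequence. Both boxes were found in 4 Scarna genes (Scarna6, Scarna9, Scarna10 and Scarna17) and in 0 Snora genes, against 72 of 395 (18.2%) other rows. Scarna2 had neither the ACA end nor both boxes. The set therefore held 27 genes with an H/ACA end and 5 scaRNA genes without it, although the symbol rule takes them together. A gene on the same strand enclosed 30 of the 32 genes, all but Scarna2 and Scarna17. Exons of another gene overlapped 17 genes, 7 of them a miRNA, and 9 genes had a near-identical copy (at least 90% identity over at least 80% of the length). Reads on several genes or places were left out by the authors, so the values of these genes are uncertain.

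Approximate depth was 4397765 and 7215802 reads for control, 9744197 and 7218795 for mdx, and 6219651 and 4771759 in the Sirt6mKO/mdx-labelled libraries. Both libraries of the last group were shallower than both mdx libraries, and the part of depth in the results was not tested. Sirt6 was at 37 and 30 in the Sirt6mKO/mdx-labelled libraries, 33 and 40 in mdx and 41 and 32 in control. The groups overlapped (log2 difference of -0.12 ± 0.50 from mdx, adjusted p = 0.912, limma), and a value over the whole gene does not isolate the deleted exons. The study itself reports efficient Sirt6 deletion by PCR genotyping in MuSCs of Sirt6mKO mice. It also reports differences in Sirt6 by RT-qPCR among MuSCs of control, mdx and Sirt6mKO/mdx mice. The control libraries held Xist at 16772 and 12950 and the Y-linked Ddx3y at 3 and 8, whereas Xist was at 7 to 34 and Ddx3y at 1024 to 1767 in the other 4 libraries. The study states that male mice were used for these cells, which the control libraries go against, so the origin of the libraries labelled control is uncertain. Sex and genotype cannot be told apart in the comparisons with control. All 9 MuSC markers were detected, with summed values of 21231 to 29029. Summed markers of other cells were below these, at most 115 for leukocytes, 225 for endothelium, 47 for Schwann cells and 360 for smooth muscle and pericytes, but 897 to 2361 for fibro-adipogenic cells and 839 to 5548 for myofibres. Several of these sums moved with the groups and are given beside each comparison, and their part in the results was not tested.

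The 32 genes together had summed values of 207799 and 101194 for control, 203391 and 127696 for mdx, and 517508 and 481863 in the Sirt6mKO/mdx-labelled libraries. Both libraries of the last group lay above the other 4, while control and mdx overlapped. The mean was 499686 ± 25205 (SD, n = 2) in Sirt6mKO/mdx, 3.02 times that of mdx (165544 ± 53524). An exact two-sided permutation test gave p = 0.333, the smallest that 2 libraries against 2 allow. In mdx the sum was 1.07 times that of control (154496 ± 75381; exact permutation p = 1). As a share of all values in a library, the set took 3.13% and 1.82% for control, 3.19% and 2.28% for mdx, and 5.38% and 5.42% in the Sirt6mKO/mdx-labelled libraries. In bulk RNA, a change in the number of cells of a type and in the RNA per cell cannot be told apart.

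Levels per length spanned a wide range. As normalized read count per 100 bases, averaged over the 6 libraries, Snora7a was the most abundant at 32698 and Snora19 the least abundant at 5.43. Snora7a led in each group, but the order behind it changed. Snora74a was second in control (13349), where Snora31 was at 5714, whereas Snora31 was second in mdx (16388) and Snora28 in the Sirt6mKO/mdx-labelled libraries (29900). Scarna10, which carries both kinds of guide sequence and acts on the U5 snRNA, was the most abundant scaRNA per length over the 6 libraries. Snora7a was at 35744 and 20148 for control, 28443 and 24286 for mdx, and 67914 and 98128 in the Sirt6mKO/mdx-labelled libraries. Snora28 was at 21234 and 8744, 21096 and 8574, and 48386 and 27560 in the same order. Both genes were highest in the last group without overlap, and control and mdx overlapped. Replicates of a group differed up to 2.46-fold in Snora28 and up to 1.77-fold in Snora7a.

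**Figure D1:**
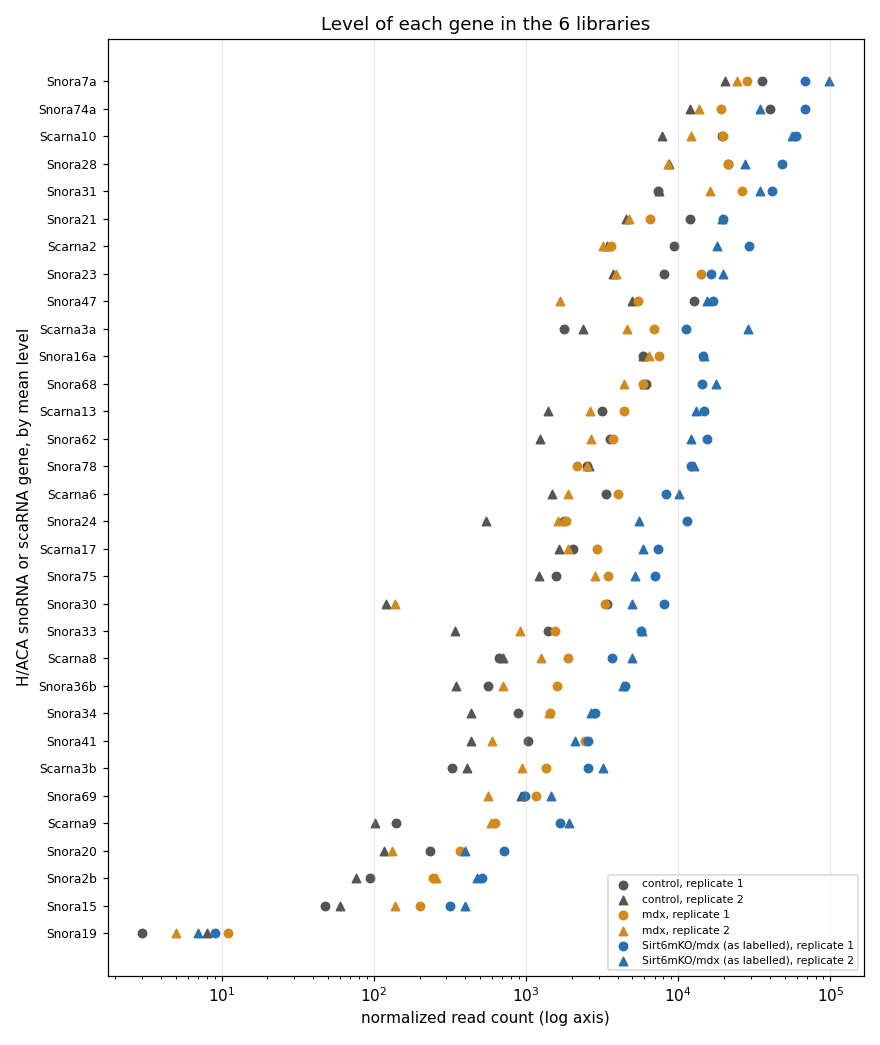
Normalized read count (log axis) of each of the 32 genes in the 6 libraries, ordered by mean level, with circles for replicate 1 and triangles for replicate 2. In 28 of 32 genes (87.5%) both Sirt6mKO/mdx-labelled libraries lay above the other 4, against 11.6% of all tested genes and 53.8% of the other short RNA genes.

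To ask which genes differed between dystrophic and wild-type MuSCs, mdx was compared with control. In limma, with Benjamini-Hochberg adjustment over 15915 genes, 9 of 32 genes rose in mdx (a call needs an adjusted p of at most 0.05 and a log2 difference of at least 1), where 6.89% of all tested genes rose. None of the set fell, where 7.34% of all tested genes fell; at an unadjusted p under 0.05, 1 gene was lower, and voom called 1 lower. The median log2 difference of the set was 0.47, against 0.00 over all tested genes. The share of the set was 28.1%, against 39.1% of C/D snoRNA genes (18 of 46, median 0.86) and 22.8% of other snoRNA genes (41 of 180, median 0.50), and these differences were not tested. The count of the set was 2 with no minimum mean and 1 with a single prior variance. Between replicates the set had a median residual SD of 0.59 on the log2 scale, whereas the prior SD that limma took from all genes at these levels was 0.33, so the errors given here are small for these genes. With the prior taken from short RNA genes alone, an alternative chosen after seeing the data, 1 of the 9 calls was left, that of Scarna9. In mdx the marker sums lay below those of control, with no overlap, for leukocytes (39 and 33 against 89 and 90), endothelium (24 and 52 against 225 and 120), myofibres (2590 and 839 against 4305 and 4154) and smooth muscle (193 and 155 against 202 and 248), and above them for Schwann cells (47 and 32 against 21 and 24).

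Scarna9, a C/D-type guide for the U2 snRNA, had 140 and 102 in control and 630 and 592 in mdx. The groups were well apart, with a log2 difference of 2.34 ± 0.25 (SE; adjusted p = 1.8e-05, limma). Scarna3b had 325 and 409 in control and 1352 and 944 in mdx (log2 difference 1.63 ± 0.27, adjusted p = 0.00077, limma). Its relative Scarna3a had 1782 and 2358 in control and 6933 and 4576 in mdx (1.46 ± 0.43 on the log2 scale, adjusted p = 0.0317, limma). Neither of the pair overlapped between groups, which held for 12 of 32 genes of the set (37.5%) against 57% of all tested genes. Both overlap a miRNA gene. Scarna8, an H/ACA guide for U2, rose less, from 669 and 706 to 1891 and 1250 (1.16 ± 0.28, adjusted p = 0.0115, limma).

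Among the Snora genes, Snora15 rose from 48 and 60 in control to 200 and 137 in mdx (log2 difference 1.61 ± 0.32, adjusted p = 0.003, limma). Snora2b and Snora34, both in introns of Kansl2, rose from 95 and 76 to 244 and 257 and from 884 and 433 to 1445 and 1406. Their log2 differences were 1.55 ± 0.27 and 1.20 ± 0.30. Kansl2 itself, a subunit gene of a histone acetyltransferase complex, fell from 172 and 226 to 62 and 93 (-1.36, adjusted p = 0.0124, limma). Snora36b and Snora75 were also called, at 1.27 ± 0.34 and 1.18 ± 0.30. Of these 5 genes each overlaps an exon of another gene, and Snora2b has 4 near-identical copies. The 23 genes not called ranged from -1.40 (Snora47) to 1.48 (Snora31).

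The calls in mdx also depended on single libraries. Without control replicate 2, 5 genes were called higher and 1 lower and the median was -0.07, and without mdx replicate 1, 3 were higher and 1 lower. In control, replicate 1 lay above replicate 2 in 25 of 32 genes, and in mdx in 30 of 32. Snora30 was extreme, at 3411 and 120 for control, 3298 and 138 for mdx, and 8093 and 4961 in the Sirt6mKO/mdx-labelled libraries. Its copy Gm25133, with 98% identity, did not show this split, at 763 and 1317, 1299 and 1627, and 3471 and 2282.

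To ask how dystrophic MuSCs labelled as lacking Sirt6 differed in the set, a loss that the Sirt6 values above do not show, the Sirt6mKO/mdx-labelled libraries were compared with mdx. Here 17 of 32 genes rose, where 5.62% of all tested genes rose, and none fell in limma, where 2.54% of all tested genes fell; 0 were lower at an unadjusted p under 0.05, and voom called 0 lower. The median log2 difference was 1.56, against 0.02 over all tested genes. Of the set 53.1% were called higher, against 37% of C/D snoRNA genes and 38.3% of other snoRNA genes, and these differences were not tested. The fitted difference was above 0 for 32 of 32 genes, against 51% of all tested genes and 46 of 46 C/D snoRNA genes. Groups did not overlap in 29 of 32 genes, against 56% of all tested, 89.1% of C/D snoRNA and 74.9% of other short RNA genes. Within the set, 2 turned below 0 with equal library totals (Snora19 and Snora69) and 12 when libraries were centred on short RNA genes. With the prior from short RNA genes, 9 were called, which include Scarna10, not called in the fit across all genes. With no minimum mean or with a single prior variance 0 were called, and with equal library totals 9 (median 0.94). Without mdx replicate 2, or without either replicate of Sirt6mKO/mdx, 3 were called in each case. Summed markers were higher than in mdx without overlap for leukocytes (115 and 75 against 39 and 33), endothelium (105 and 153 against 24 and 52) and smooth muscle (360 and 249 against 193 and 155), and lower for Schwann cells (19 and 14 against 47 and 32).

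Scarna2, a C/D-type guide for U2, had 3600 and 3184 in mdx and 29142 and 17939 in the Sirt6mKO/mdx-labelled libraries. The groups were far apart (log2 difference 2.76 ± 0.47, adjusted p = 0.002, limma), while control, at 9358 and 3403, overlapped mdx. Snora47 had 5415 and 1664 in mdx against 16855 and 15420 (2.42 ± 0.53, adjusted p = 0.0112, limma). Its control values of 12634 and 5002 lay below the last group too, and that comparison was not called (1.02 ± 0.53, adjusted p = 0.259, limma). Snora78 had replicates close to each other, at 2501 and 2585 for control, 2168 and 2527 for mdx, and 12081 and 12613. Control and mdx overlapped, and the last group was higher by 2.40 ± 0.30 than mdx on the log2 scale (adjusted p = 0.00018, limma).

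Snora33, Snora24 and Snora62 had log2 differences of 2.27 ± 0.47, 2.21 ± 0.45 and 2.12 ± 0.43. Snora33 was at 1561 and 920 in mdx against 5715 and 5820, Snora24 at 1829 and 1619 against 11457 and 5533, and Snora62 at 3710 and 2654 against 15381 and 12164. In each the groups were separate. Among scaRNAs, 8 of 9 rose, where 5.62% of all tested genes rose. With the prior from short RNA genes 3 of 9 were called, and 8 of the 8 calls were lost without some single library. Scarna13 was at 4375 and 2627 in mdx against 14721 and 13052 (2.03 ± 0.40, adjusted p = 0.006, limma). Scarna10 was the scaRNA not called, at 19669 and 12212 against 59439 and 56078 (1.90 ± 0.61, adjusted p = 0.0667, limma). Its groups did not overlap either, and the replicate block, voom, the robust prior and the short RNA prior each called it higher. Of 23 Snora genes 9 rose, of which 8 were lost without some single library, and the short RNA prior called 6. The medians were 1.44 for Snora and 1.68 for Scarna. The 27 genes with an ACA end and the 5 without it had medians of 1.47 and 1.73.

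Snora21, in an intron of Rpl23, was at 6491 and 4759 in mdx against 19703 and 19443, without overlap (1.82 ± 0.47, adjusted p = 0.0267, limma), and has a copy of 98% identity. Scarna6 was at 3997 and 1900 against 8275 and 10085, also without overlap (1.73 ± 0.42, adjusted p = 0.0187, limma). Snora23 was at 14175 and 3917 against 16377 and 19715 and was not called (1.27 ± 0.55, adjusted p = 0.166, limma). Its groups did not overlap, but the mdx replicates differed 3.62-fold. The abundant Snora7a and Snora74a were not called. Snora7a differed by 1.64 with a 95% interval of 0.07 to 3.20, and Snora74a by 1.58 with an interval of 0.09 to 3.07 (adjusted p = 0.181 and 0.174, limma). Snora74a was at 40395 and 11932 for control, 19127 and 13785 for mdx, and 67838 and 34584. Mdx lay below the last group, and control overlapped it. At the other end, Snora69 had 1161 and 565 in mdx against 992 and 1450, which overlapped (0.57, interval -0.11 to 1.24).

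**Figure D2:**
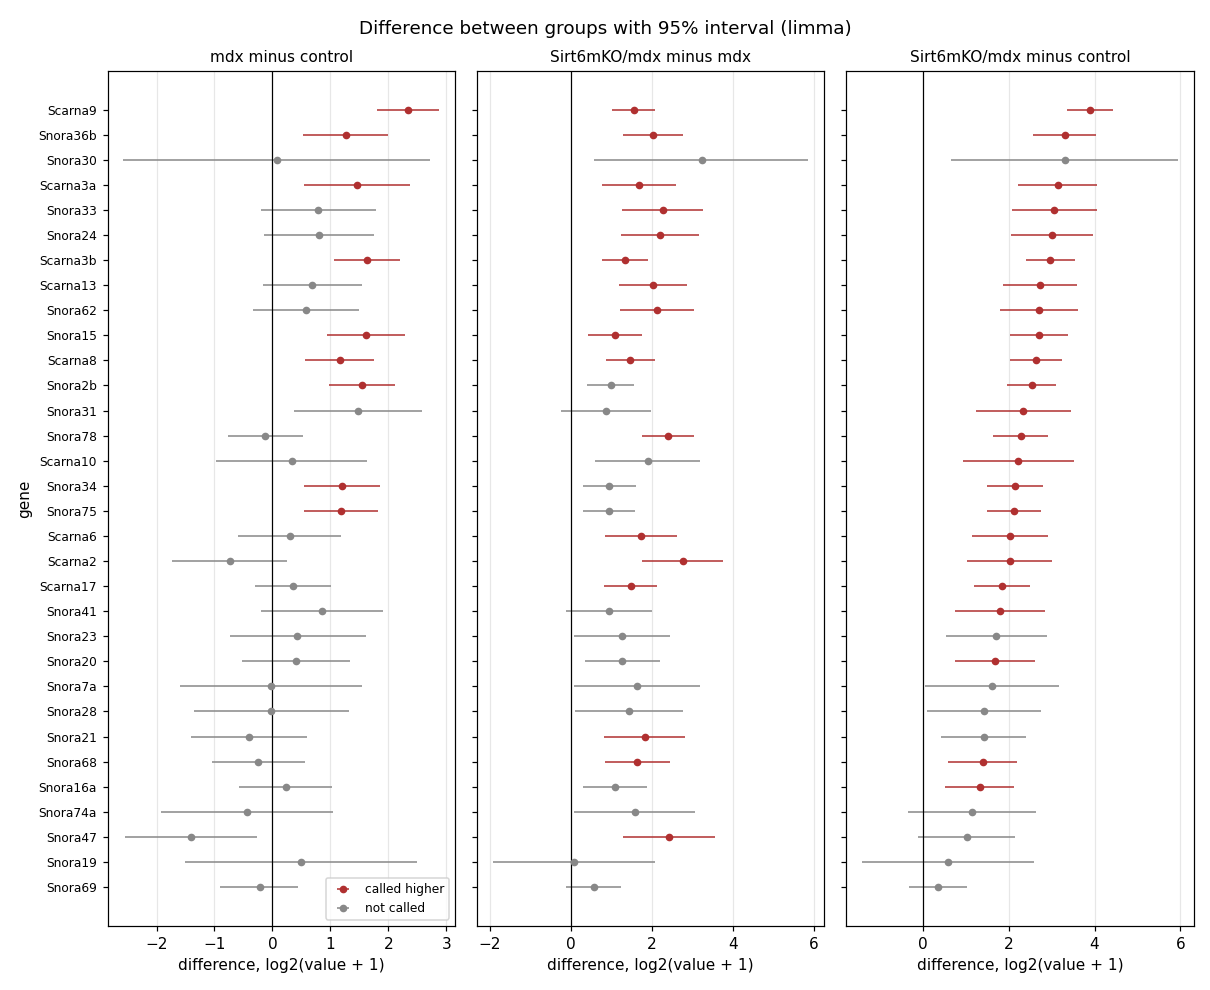
Difference between groups on the log2(value + 1) scale for each of the 32 genes, with its 95% interval from limma and genes called higher in red. In the comparison of Sirt6mKO/mdx with mdx all 32 points lay above 0, from 0.08 (Snora19) to 3.23 (Snora30), under the scaling of the deposited values. Of these, 2 turned below 0 with equal totals and 12 when centred on short RNA genes. The difference was above 0 for 51% of all tested genes and for 46 of 46 C/D snoRNA genes.

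Against control, 23 of 32 genes rose in the Sirt6mKO/mdx-labelled libraries, where 5.19% of all tested genes rose, and none fell in limma, where 2.68% fell; 0 were lower at an unadjusted p under 0.05, and voom called 0 lower. The median log2 difference was 2.14, against 0.01 over all tested genes, and 9 of 9 Scarna genes were called. This comparison shares its libraries with the other two. Scarna9 differed most, at 1670 and 1923 against 140 and 102 in control (3.90 ± 0.25, adjusted p = 2.9e-07, limma). Snora36b followed, at 4440 and 4343 against 563 and 349 (3.31 ± 0.34, adjusted p = 3.6e-05, limma). Scarna3a was at 11333 and 28820 (3.14 ± 0.43) and Scarna3b at 2558 and 3193 (2.97 ± 0.27). Snora33 and Snora24 differed from control by 3.06 ± 0.47 and 3.01 ± 0.45. Snora31 was at 7349 and 7508 for control, 26400 and 16210 for mdx, and 41262 and 34481, with no overlap between any groups (2.34 ± 0.52 against control, adjusted p = 0.012, limma). The rise was shared by 32 of 46 C/D snoRNA genes (69.6%, median 2.10) and 98 of 180 other snoRNA genes (54.4%, median 1.86). With the prior from short RNA genes 19 were called, with a single prior variance 4 and with no minimum mean 0. Leaving out a library gave 12 without Sirt6mKO/mdx replicate 1, 14 without its replicate 2 and 15 without control replicate 2. Summed markers of fibro-adipogenic cells (2220 and 1386 against 1010 and 1317) and of smooth muscle (360 and 249 against 202 and 248) were higher than in control without overlap, and those of MuSCs (21231 and 25422 against 29029 and 27277) and Schwann cells (19 and 14 against 21 and 24) were lower.

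In 11 of 32 genes (34.4%) the mdx libraries lay above control and below the last group without overlap, against 3.32% of all tested genes and 21.3% of the other short RNA genes. These were Scarna3a, Scarna3b, Scarna8, Scarna9, Snora2b, Snora15, Snora16a, Snora31, Snora34, Snora36b and Snora75. The 7 genes called in no comparison were Snora7a, Snora19, Snora23, Snora28, Snora30, Snora69 and Snora74a.

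Other short RNAs moved in the same libraries. Between Sirt6mKO/mdx and mdx the median log2 difference was 1.15 for 46 C/D snoRNA genes, 1.37 for 180 other snoRNA genes, 2 for 200 snRNA genes, 1.35 for 94 misc RNA genes and 1.18 for 160 miRNA genes, and -0.04 for 13619 protein-coding genes. Of these 680 short RNA genes 164 (24.1%) were called higher and 0 lower. Short RNA genes outside the set took 13.7% to 23% of all values in control and mdx, and 38.5% and 41.9% with the Sirt6mKO/mdx label, where protein-coding genes took 39.7% and 42.8% against 62.1% to 78.8%. When each library was centred on the short RNA genes outside the set, an alternative chosen after seeing the data, the median of the set against mdx was 0.12, with 2 genes called higher. Against control it was 0.57, with 7 genes higher and 1 lower, and for mdx against control 0.34, with 2 higher. The difference from mdx was thus 1.56 relative to all genes and 0.12 relative to other short RNA genes, and what set the level of short RNAs in these libraries was not tested.

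**Figure D3:**
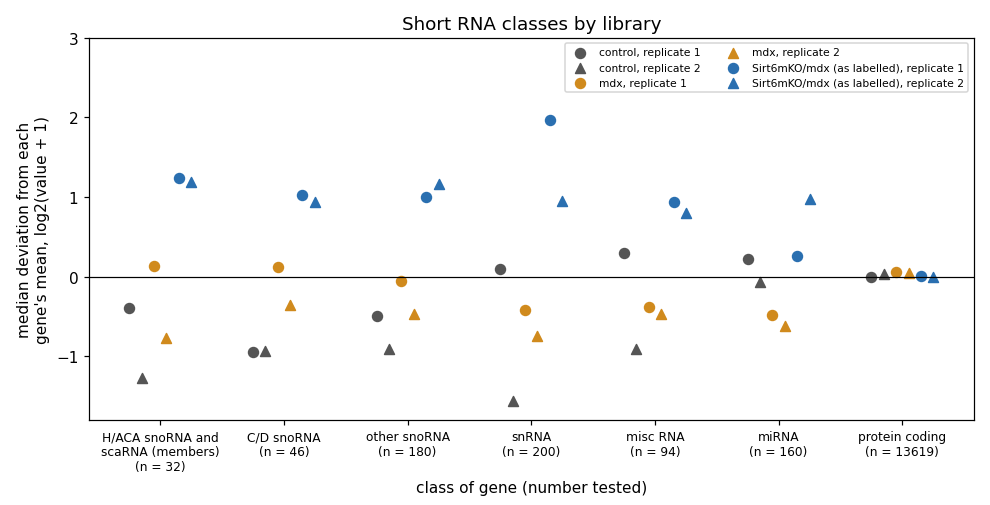
Median over the tested genes of a class of the deviation from each gene's mean, in log2(value + 1), for the 6 libraries. Both Sirt6mKO/mdx-labelled libraries were the highest in the set (1.24 and 1.19) and in C/D snoRNA, other snoRNA, snRNA, misc RNA and miRNA genes, while protein-coding genes stayed between 0.00 and 0.06.

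Host genes were compared with the RNAs in their introns. For 27 of the 32 genes the host was tested, which gave 26 hosts. Between Sirt6mKO/mdx and mdx the hosts had a median log2 difference of -0.03, with 1 called higher and 1 lower (4 and 5 at an unadjusted p under 0.05). Over all tested genes 5.62% were called higher and 2.54% lower. The 13 called genes with a tested host lay in hosts that were not called, as were 91.8% of all tested genes, so this count is near the background. The host called higher was Snhg12, a non-coding host whose exon overlaps Snora16a, at 351 and 877 against 224 and 183 in mdx. The host called lower was Ncl, which encodes the nucleolar protein nucleolin, at 990 and 1199 against 2499 and 2281 (-1.13, adjusted p = 0.0222, limma), while its Snora75 was at 7068 and 5177 against 3467 and 2843 (0.95, not called). Snhg9, host of Snora78, was at 102 and 56 against 25 and 15 and was not called (1.91, adjusted p = 0.0952, limma). In mdx against control 0 hosts were called higher in limma and 2 lower, Kansl2 and Rpsa (3 higher and 7 lower at an unadjusted p under 0.05). Over all tested genes 6.89% were higher and 7.34% lower, so 2 of 26 lower is near the background. Across the 27 pairs Pearson's r was 0.15 between Sirt6mKO/mdx and mdx, a description over genes that share libraries.

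**Figure D4:**
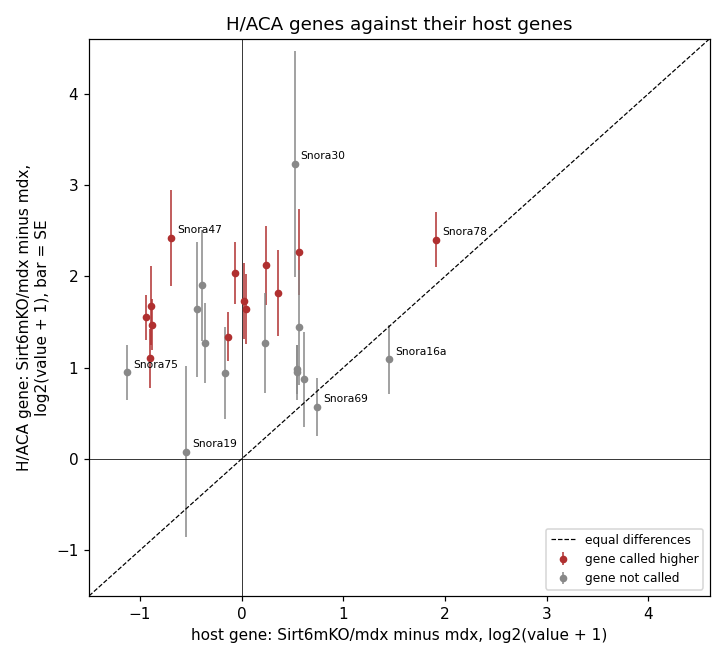
Difference between Sirt6mKO/mdx and mdx on the log2(value + 1) scale for 27 genes of the set (vertical, with SE) and for their host genes (horizontal), with called genes in red and a dashed line for equal differences. In 25 of 27 pairs the point lay above the line. The median log2 difference was -0.03 for the hosts and 1.48 for short RNA genes outside the set, for which no such count was made.

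The genes of the protein partners of H/ACA RNAs were examined as well. Of the core particle, Dkc1, the pseudouridine synthase, was at 174 and 369 for control, 417 and 389 for mdx, and 94 and 175 in the Sirt6mKO/mdx-labelled libraries. The last group lay below mdx without overlap (-1.64, adjusted p = 0.0116, limma). Gar1 was at 75 and 104 in mdx against 45 and 32 (-1.20, adjusted p = 0.0805, limma), and Nop10 and Nhp2 differed by 0.09 and 0.10. The 7 assembly genes, among them Naf1 and Shq1, the 3 Cajal body genes Wrap53, Coil and Smn1, and the 4 genes of RNA maturation had no call in any of the 3 comparisons, where 85.8% to 92.1% of all tested genes had none. The assembly gene Nolc1 missed a call by its log2 difference alone, at 450 and 587 in control against 226 and 306 in mdx (-0.96, adjusted p = 0.0211, limma). Of 29 tested genes of these lists and of the stand-alone pseudouridine synthases, 0 were higher and 1 lower between Sirt6mKO/mdx and mdx (0 and 4 at an unadjusted p under 0.05), with a median of -0.27. Over all tested genes 5.62% were higher and 2.54% lower, so 1 of 29 is near the background. At an unadjusted p under 0.05 in limma, 2 were higher and 4 lower in mdx against control. In Sirt6mKO/mdx against control 1 was higher and 6 lower.

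Among the stand-alone synthases, which need no guide RNA, Pus1 fell in mdx, from 121 and 132 to 58 and 61 (-1.07, adjusted p = 0.0457, limma). Pus7 was lower in the Sirt6mKO/mdx-labelled libraries than in control, at 158 and 110 against 269 and 501 (-1.47, adjusted p = 0.0121, limma), and Pus10 was higher, at 201 and 199 against 97 and 96 (1.04, adjusted p = 0.0362, limma). In mdx Pus10 was at 202 and 164, also above control (0.91, adjusted p = 0.0439, limma), but not called. It differed by 0.14 between Sirt6mKO/mdx and mdx. None of these 3 genes overlapped between the groups named. That held for 57% of all tested genes in mdx against control and 51.6% in Sirt6mKO/mdx against control. Of 11 tested synthases 0 were called higher and 1 lower in mdx against control, where 6.89% and 7.34% of all tested genes were. In Sirt6mKO/mdx against control 1 was higher and 1 lower, where 5.19% and 2.68% were, and these differences were not tested. Pus3 stayed under the minimum mean and was not tested.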

How the data were processed

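RNA-seq was made from 6 MuSC libraries, 2 per group. The authors removed ribosomal RNA, sequenced on an Ion Proton, trimmed with Reaper, aligned with STAR and counted with featureCounts 1.4.5-p1 on GRCm38, leaving out reads on several genes or places. Use of strand was not given in the sources used here. The deposited values are a score: the authors divided counts by a DESeq2 size factor per library (0.537 to 1.53 as recovered here) and rounded. The factors were 0.662 and 1.2968 for control, 1.5268 and 1.2863 for mdx, and 0.6461 and 0.5372 in the Sirt6mKO/mdx-labelled libraries. Intervals and tests therefore used no raw counts.

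Differences in log2(value + 1) were fitted by limma 3.58.1 (R 4.3.3), whose prior variance followed the mean, using all 6 libraries and no replicate block, over 15915 genes with a mean of at least 5. Fold changes on this scale understate low genes. The script was tested on simulated data, with variances drawn from the fit across all genes. Genes of the set varied more than that fit gave them, so the outcome does not carry over to the set. Copies were searched with BLAST 2.17.0. Named were the 8 most abundant members, the called members with the largest differences and no overlap, the 5 most abundant scaRNAs and the gene lists. Snora30, Snora69 and the copies were named after their values were seen. Members and lists were chosen with earlier results of these data known. Alternatives changed the pseudocount, filter, scaling, prior variance, samples or members.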

Additional observations from a re-analysis of the deposited data

How the results depend on the processing

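Counts of called members changed strongly between settings and with single libraries. For mdx against control (9 higher, 0 lower, median 0.47), 2 were higher with no minimum mean, 1 with a single prior variance, 1 with the prior from short RNA genes and 2 when centred on short RNA genes; voom and the replicate block each gave 1 lower. For Sirt6mKO/mdx against mdx (17 higher, median 1.56), the counts were 0 with no minimum mean, 0 with a single prior variance, 9 with the short RNA prior, 9 with equal totals (median 0.94) and 2 when centred (median 0.12). Against control (23 higher, median 2.14), they were 0 with no minimum mean, 4 with a single prior variance, and 7 higher and 1 lower when centred (median 0.57), and equal totals gave a median of 1.53. The median of all tested genes in the comparisons of Sirt6mKO/mdx with mdx and with control was 0.02 and 0.01 as deposited, -0.58 and -0.58 with equal totals, and -1.42 and -1.57 when centred. What lowered the counts under the other settings was not tested.

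Members without exon overlap (15) gave 2, 9 and 10 higher in the 3 comparisons in this order, and Snora members alone (23) gave 5, 9 and 14, which are smaller sets. Leaving out each library gave 3 to 9 higher, 0 to 1 lower and medians of -0.07 to 1.06 for mdx against control; 3 to 17 higher, 0 lower and medians of 1.18 to 1.97 for Sirt6mKO/mdx against mdx; and 12 to 24 higher, 0 lower and medians of 1.60 to 2.48 against control. A lone library in a group is assumed to vary like the others.

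Single members turned sign as follows, as far as they were followed. For Sirt6mKO/mdx against control only members called there were followed, and for mdx against control most uncalled members were not. In the latter comparison the median of the set turned to -0.07 without control replicate 2. Against mdx, centring gave -0.10 for Scarna3b, -0.34 for Snora15, -0.35 for Snora16a, -1.36 for Snora19, -0.17 for Snora20, -0.17 for Snora23, -0.46 for Snora2b, -0.57 for Snora31, -0.49 for Snora34, -0.50 for Snora41, -0.87 for Snora69 and -0.49 for Snora75, and against control -0.25 for Snora16a and -0.18 for Snora68. Equal totals gave -0.47 for Snora19 and -0.06 for Snora69, and equal upper quartiles -0.02 for Snora19. Leaving out 1 library gave -0.42 (without mdx replicate 2) to 0.58 for Snora19, with -0.08 without Sirt6mKO/mdx replicate 1, and -0.07 (without mdx replicate 2) to 1.95 for Snora41.

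Whether equal replicate numbers pair the samples was not settled. Deviations of same-numbered libraries correlated across all tested genes at -0.13 (control and mdx), 0.12 (control and Sirt6mKO/mdx) and 0.01 (mdx and Sirt6mKO/mdx), but across the 32 members at 0.62, 0.50 and 0.21 in the same order. The labels give no shared litter, batch or day. With the replicate block, 10, 20 and 26 members were called higher in the 3 comparisons, and 1, 0 and 0 lower. The short RNA prior, the centring and the removal of Snora30 and Snora19 were chosen after seeing the data.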
